A study of Caenorhabditis elegans with 4 samples.

Results

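On chromosome X of fed L1 hermaphrodites, 544 GEI-11 regions had their centre within the first 11.8 Mb from the left end, out of 5999 in the list that joins the replicates. They were chosen by position alone, as the regions of that list on the left arm (centre up to 5.9 Mb, 319 regions) and in the centre of the chromosome (above 5.9 Mb, 225 regions). The other 5455 regions lay on the right arm of X (447) and on the 5 autosomes (5008). The stretch held 9.07% of the combined list, 7.51% of the replicate 1 list (227 of 3021) and 8.49% of the replicate 2 list (316 of 3722). At the median, its regions had weaker q values than the whole combined list, most of which was weak too. The left arm held regions more densely than the centre did, most of all in the third Mb from the left end. Of the 12 strongest regions of the stretch, 7 lay in the first 3 Mb. Those 3 Mb held 33.6% of the stretch's regions and were picked because they were full. The centre held fewer regions, and more of them were wide.

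GEI-11, also named SNPC-4, belongs to SNAPc, the complex that binds a promoter element upstream of small nuclear RNA genes and starts their transcription by RNA polymerase II or III. Hermaphrodites have a pair of X chromosomes, and in their somatic cells the dosage compensation machinery lowers transcription from both. In the RefSeq gene table, 3 of 129 snRNA genes are assigned to X, against 276 of 634 tRNA genes (43.5%) and 2730 of 19983 protein-coding genes (13.7%). These are counts per chromosome. That table is of the WBcel235 build and the regions are in WS220, so no region was placed on a gene or read as sequence.

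The 4 samples were 2 ChIP samples and 2 inputs, all of strain OP179, genotype unc-119(ed3) III; wgIs179, in which a bombarded transgene carries unc-119(+) and gei-11 fused to TY1, EGFP and 3xFLAG. All 4 samples were of larvae grown at 20 °C and were treated with 2% formaldehyde. Chromatin was collected with antibodies against GFP, so the lists show the tagged protein. Every sample shares the transgene, and none without a tag was analysed. Each list gives 1 measurement per region, the authors' q value, printed here as −log10 q, so that a higher value marks a stronger call. Sequencing depth is unknown and q values depend on it, so they rank regions within a list only. The labels do not state that the replicates were separate cultures. No input list was used, so no input values stand beside those of the regions. Whether the q values already draw on the inputs is not stated.

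Regions were denser on the left arm than in the centre in each list. The combined list had 319 regions on the left arm (54.1 per Mb) and 225 in the centre (38.1 per Mb). Replicate 1 had 139 and 88, or 23.6 and 14.9 per Mb, and replicate 2 had 190 and 126, or 32.2 and 21.4 per Mb. Both segments are the same length, so 50% of the regions would lie on the left arm if density were even. The left arm share was 58.6% in the combined list (95% exact Clopper-Pearson interval 54.4 to 62.8, adjusted p = 0.000193), 61.2% in replicate 1 (54.6 to 67.6, adjusted p = 0.000865) and 60.1% in replicate 2 (54.5 to 65.6, adjusted p = 0.000567). The p-values are from two-sided exact binomial tests adjusted over the 3 lists by the Benjamini-Hochberg method. The combined list draws on the replicates, so the 3 tests are not independent, and the intervals and tests count neighbouring regions as independent events.

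Within the left arm the density varied. In blocks of 1.18 Mb, the left arm had 59, 64, 83, 55 and 58 combined regions from the left end inward (mean 63.8 ± 11.2, SD, 5 blocks). The centre had 43, 52, 36, 45 and 49 (mean 45.0 ± 6.12, SD, 5 blocks). Each left arm block thus held more than any centre block in the combined list, but not in the replicates. In replicate 1 the left arm blocks held 17 to 36 regions and the centre blocks 15 to 22. In replicate 2 the left arm blocks held 30 to 52 and the centre blocks 19 to 32. The third Mb was the fullest, with 78 combined regions, 32 in replicate 1 and 41 in replicate 2. The first 3 Mb together held 183 combined regions (61.0 per Mb), 90 in replicate 1 and 109 in replicate 2. That stretch was picked because it was full, so leaving it out had to lower the left arm's density. Without it, a comparison added after seeing the data, 136 left arm regions stood against 225 in the centre (46.9 and 38.1 per Mb). Their share was 1.14 times that of length and no longer passed the exact binomial test (adjusted p = 0.0967), with adjusted p of 0.525 in replicate 1 and 0.0967 in replicate 2.

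**Figure D1:**
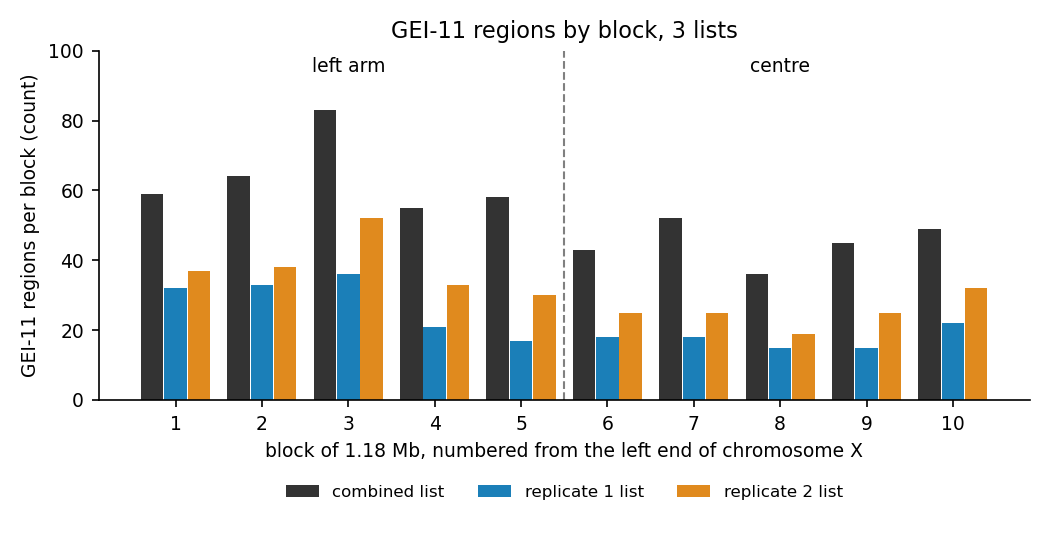
Number of GEI-11 regions (vertical axis, count) in each of 10 blocks of 1.18 Mb, numbered from the left end of X (horizontal axis), in the combined, replicate 1 and replicate 2 lists (bars). The combined list has 55 to 83 regions per left arm block and 36 to 52 per centre block, with the third block highest in every list.

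At the scale of 100 kb the members were unevenly spread, with 4.61 ± 2.91 per window (SD, 118 windows) and a highest count of 16. Windows with 8 or more members numbered 16 on the left arm and 4 in the centre, of 59 each, while empty windows numbered 2 in each. The fullest window, 2500001 to 2600000, held 16 members, of which 4 were found in both replicates and 6 in neither. It was full of weak regions, with a median −log10 q of 3.57 and 1 member past a q of 1e-10. The next, 2800001 to 2900000, held 12 members, 3 of them past that q, and the window 8000001 to 8100000 in the centre held 11. Windows from 900001 and from 1300001 held 10 members each, and their medians of 7.06 and 8.06 were higher than in the fuller windows. In the second of these, 7 of 10 members were found in both replicates. They were 2 of the 5 windows with that count.

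The longest stretches without a member were of like length, 147.6 kb in the centre (10229950 to 10377593), 146.2 kb on the left arm (147062 to 293240) and 146.0 kb in the centre (9150536 to 9296555). Neither replicate list had a region in the first or the second of them, and replicate 1 had 2 in the third. Neighbouring members stood 11.5 kb apart at the median, against 6.40 kb on the right arm and 8.66 kb on the autosomes. The median gap was 9.79 kb on the left arm and 14.5 kb in the centre. No gap was shorter than 208 bp, and in the whole list none was shorter than 200 bp. Gaps of 500 bp or less numbered 19 of 543 (3.50%), against 17 of 446 (3.81%) on the right arm and 287 of 5003 (5.74%) on the autosomes. In 12 of these 19 close pairs 1 partner was found in both replicates and the other was not, and in 1 pair both were. Replicate support of close pairs is given for the stretch alone, so it cannot be called particular to it. The median −log10 q was 7.24 for the stronger partner and 2.78 for the weaker, an order fixed by sorting each pair.

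The members were weaker than the list as a whole. Their median −log10 q was 3.42, against 4.95 for the right arm of X, 4.26 for the autosomes and 4.20 over all 5999 regions. A q of 1e-10 or less was reached by 74 of 544 members (13.6%, interval 10.8 to 16.8), against 19.7% of all combined regions. On the left arm 51 of 319 passed it (16.0%, 12.1 to 20.5), in the centre 23 of 225 (10.2%, 6.59 to 14.9), on the right arm 108 of 447 (24.2%, 20.3 to 28.4) and on the autosomes 999 of 5008 (19.9%, 18.8 to 21.1). In replicate 1 the share was 17 of 227 (7.49%), against 11.5% of that whole list, and in replicate 2 it was 37 of 316 (11.7%), against 14.2%. Of the 74 strong members, 36 (48.6%) lay in the first 3 Mb. That stretch is 25.4% of the length and held 33.6% of the members. These shares describe 2 libraries, and no test over regions was made on them.

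The strongest member was 2328731 to 2329178 on the left arm, whose −log10 q was 119.7 when the replicates were combined, 68.6 in replicate 1 and 94.1 in replicate 2. It was 448 bp wide and stood far above the second, 2843491 to 2843884 (64.0 combined, 25.1 in replicate 1, 42.4 in replicate 2). The lists placed it alike, at rank 56 of the combined list, 58 of replicate 1 and 57 of replicate 2. The second ranked 101, 118 and 100. The strongest member of the centre, 11605387 to 11606627, was 1241 bp wide and had a combined value of 56.6, with 29.0 in replicate 1 and 32.6 in replicate 2. On the left arm 2891195 to 2892275 reached nearly the same combined value, 56.6, with 21.8 in replicate 1 and 38.6 in replicate 2. Region 2996646 to 2997575 had a combined value of 54.5, with 27.9 and 29.0 in replicates 1 and 2. Thus 4 of the 5 strongest members lay within 0.67 Mb of each other on the left arm.

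The next members by combined q were 11093780 to 11094453 in the centre (47.3) and 1626680 to 1627416, 806430 to 806939 and 1503726 to 1505320 on the left arm (45.8, 38.4 and 35.9). Then came 10567820 to 10569188 and 6296189 to 6297028 in the centre (35.1 and 34.3) and 5840755 to 5841543 near the inner end of the left arm (31.2). These 12 were picked by smallest combined q among members found in both replicates, so that trait was set by the rule. Of them, 8 were on the left arm, 7 of these in the first 3 Mb, and 4 in the centre. Region 1626680 to 1627416 ranked 115 in replicate 1 (25.4) and 190 in replicate 2 (20.1).

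The 4 following members of each segment ran from 25.6 to 29.8 on the left arm and from 17.3 to 30.6 in the centre. On the left arm they were 1344842 to 1345281 (29.8), 4208628 to 4209619 (27.4), 2362863 to 2363165 (25.7) and 4102948 to 4103404 (25.6). The last 2 ranked higher in replicate 2 than in replicate 1. Region 2362863 to 2363165 ranked 448 in replicate 1 (8.08) and 210 in replicate 2 (18.6), and 4102948 to 4103404 ranked 414 (8.68) and 207 (18.8). In the centre they were 8036012 to 8036828 (30.6), 9465452 to 9466088 (29.6), 11030943 to 11031959 (20.9) and 8835725 to 8836211 (17.3). Of these, 8036012 to 8036828 ranked 153 in replicate 1 (−log10 q 19.8) and 404 in replicate 2 (12.3), while 9465452 to 9466088 ranked 283 in replicate 1 (11.9) and 179 in replicate 2 (21.4).

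Both replicates held 180 of the 544 members (33.1%, interval 29.1 to 37.2), where a shared base pair counted as a match; over all combined regions the share was 38.8%. Replicate 2 alone held 121 (22.2%) and replicate 1 alone 33 (6.07%), against 19.9% and 8.15% over all combined regions. Neither list held 210 (38.6%, interval 34.5 to 42.8), against 33.2% in neither over all combined regions. The left arm had 112 of 319 in both (35.1%, 29.9 to 40.6), the centre 68 of 225 (30.2%, 24.3 to 36.7), the right arm 203 of 447 (45.4%, 40.7 to 50.2) and the autosomes 1942 of 5008 (38.8%, 37.4 to 40.1). Within the left arm, blocks of 1.18 Mb had 44.1%, 45.3%, 33.7%, 30.9% and 20.7% of members in both replicates from the left end inward, and the centre blocks ran from 25.0% to 38.8%. At the median, members found in both were 481 bp wide with a −log10 q of 8.69, and those found in neither were 226 bp wide with 2.37. The whole list had the same order, with 406 bp and 10.1 in both and 197 bp and 2.48 in neither.

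**Figure D2:**
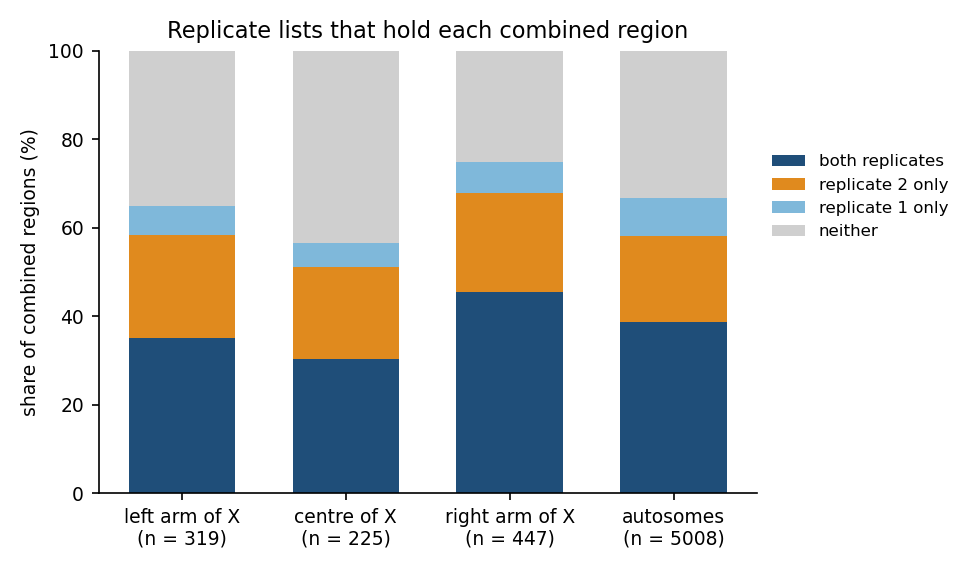
Share of combined regions (vertical axis, %) held by both replicate lists, 1 list only or neither (stacked colours), for the left arm and centre of X, the right arm of X and the autosomes (bars). The share in both is 35.1% on the left arm and 30.2% in the centre, against 45.4% on the right arm and 38.8% on the autosomes.

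At equal rank in the combined list, members were found in both replicates at least as often as other regions in every rank class above the last 2, with intervals that overlapped in each class. All 61 members ranked 1 to 1000 were found in both, and so were 937 of 939 other regions. At ranks 1001 to 2000 the count was 75 of 82 members (91.5%, interval 83.2 to 96.5), against 790 of 918 other regions (86.1%, 83.7 to 88.2). At ranks 2001 to 3000 it was 38 of 76 (50.0%, 38.3 to 61.7) against 389 of 924 (42.1%, 38.9 to 45.4), and at ranks 3001 to 4000 it was 6 of 84 (7.14%, 2.67 to 14.9) against 29 of 916 (3.17%, 2.13 to 4.51). Below rank 4000 neither members (0 of 241) nor other regions (0 of 1758) were found in both. The members filled the low ranks, making up 5.80% of ranks 1 to 500 and 13.1% of ranks 5001 to 5999. Of the centre's regions 28.4% fell in that last class, against 21.0% of the left arm's and 15.9% of all other regions.

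**Figure D3:**
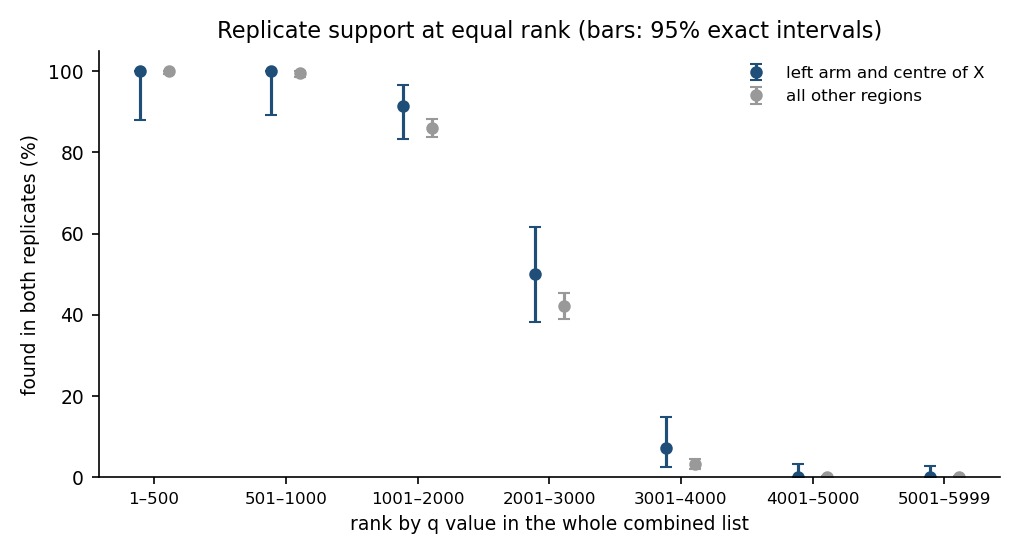
Share of regions found in both replicates (vertical axis, %) by class of rank in the whole combined list (horizontal axis), for the left arm and centre of X (dark) and all other regions (grey), with 95% exact intervals as bars. Support falls from 100% of members at ranks 1 to 500 to 0% below rank 4000, and the 2 sets overlap in every class.

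Seen from the replicate lists, 180 of the 227 replicate 1 regions of the stretch (79.3%, interval 73.4 to 84.4) met a replicate 2 region, against 77.6% of all replicate 1 regions. In the other direction 181 of 316 (57.3%, 51.6 to 62.8) met one, against 63.0% of all replicate 2 regions. The combined list lacked 12 of the replicate 1 regions and 13 of the replicate 2 regions. These were weak, with −log10 q up to 2.96 and 2.77, and 0 of them met a region of the other replicate. So no pair of overlapping replicate regions was missing from the combined list here, whereas 1 was on the right arm and 3 on the autosomes.

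The 180 members held by both replicates were compared in q value and position. Replicate 2 had the higher −log10 q in 130 (72.2%) and exceeded that of replicate 1 by 1.17 at the median of all 180; the share was 71.2% over the 2325 such regions of the whole list. Since depth is unknown, these differences between lists do not show stronger binding in either replicate. Spearman's rho of the replicates' −log10 q was 0.657 over the 180, 0.734 over the 112 on the left arm and 0.499 over the 68 in the centre; it was 0.800 on the right arm (203) and 0.740 on the autosomes (1942). These correlations run across regions of 1 pair of libraries and share their depth. The combined value exceeded both replicate values in 178 of 180 (98.9%), against 2317 of 2325 (99.7%) in the whole list. The replicate centres lay 32.5 bp apart at the median and within 100 bp in 161 (89.4%), against 92.1% on the right arm and 86.7% on the autosomes.

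**Figure D4:**
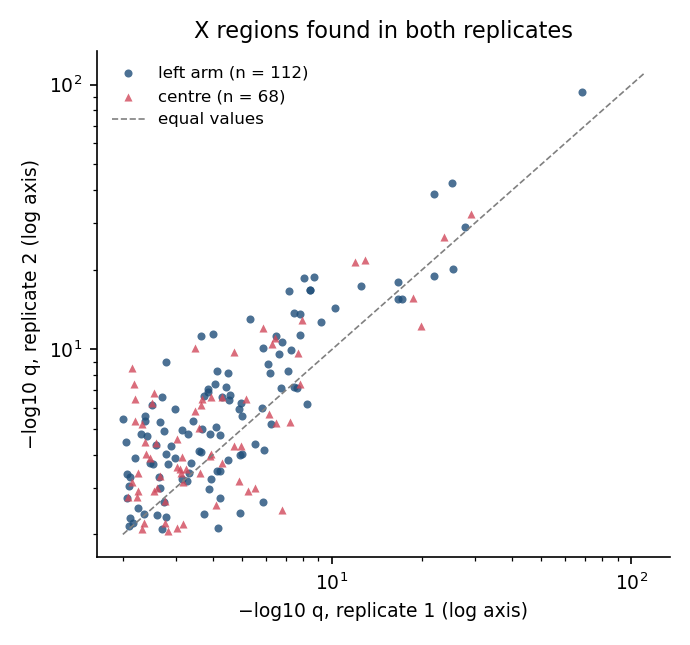
−log10 q in replicate 1 (horizontal, log axis) and replicate 2 (vertical, log axis) of the members found in both, 112 on the left arm (circles) and 68 in the centre (triangles), with a dashed line at equal values. Of the 180 points, 130 lie above the line, and the highest (68.6 and 94.1) stands apart from the rest.

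The centre had the wider regions. Median width in the combined list was 318 bp on the left arm and 347 bp in the centre, against 317 bp on the right arm and 313 bp on the autosomes. Regions of 600 bp or more made up 38 of 319 on the left arm (11.9%, interval 8.57 to 16.0) and 44 of 225 in the centre (19.6%, 14.6 to 25.3), against 11.2% of all combined regions. In replicate 1 they were 13 of 139 (9.35%) on the left arm and 13 of 88 (14.8%) in the centre, with 9.73% over that list. In replicate 2 they were 16 of 190 (8.42%) and 24 of 126 (19.0%), with 8.49% over the list. The centre's wide regions were not spread evenly, with 13, 11, 0, 7 and 13 in its 5 blocks, and the intervals of the 2 segments overlapped. The narrowest regions, under 50 bp, numbered 31 of 544 (5.70%), against 7.30% of all combined regions. None of the 31 was found in both replicates, and neither was any of the 438 such regions of the whole list. The −log10 q of the 31 was at most 2.95, against at most 6.22 for the 438.

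Wide regions of the stretch were weak for their width, and so were its narrower ones. Members under 600 bp had a median −log10 q of 3.00, against 4.36 on the right arm and 3.83 on the autosomes. The 82 members of 600 bp or more had a median −log10 q of 8.06, against 10.5 for 45 such regions on the right arm and 12.7 for 543 on the autosomes. A q above 1e-5 was held by 24 of the 82 (29.3%), against 10 of 45 (22.2%) on the right arm and 55 of 543 (10.1%) on the autosomes. Both replicates held 27 of 38 on the left arm (71.1%, interval 54.1 to 84.6) and 29 of 44 in the centre (65.9%, 50.1 to 79.5), against 73.3% of those on the right arm and 79.0% on the autosomes. Neither replicate held 9 of the 82 (11%), against 2 of 45 (4.44%) on the right arm, 34 of 543 (6.26%) on the autosomes and 45 of 670 (6.72%) in the whole list. All 9 lay in the centre. The 4 strongest members found in neither replicate were among these: 11607166 to 11608185 (−log10 q 4.57), 6253553 to 6255069 (4.47), 7681925 to 7682679 (4.27) and 8109276 to 8110163 (3.88). The first stood 538 bp from the strongest member of the centre. In all, 5 of the 9 lay within 1 kb of another member. Regions 6806526 to 6807217 and 6808165 to 6809152 were each other's nearest, so their gap counts for both. Over all members, 43 of 543 gaps (7.92%) were 1 kb or less, a share of gaps and not of regions. Whether wide regions in neither replicate lie closer to other members was not tested.

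The widest member, 6740594 to 6743262 in the centre, spanned 2669 bp with a −log10 q of 15.2 and met 3 separate regions of replicate 1 and 2 of replicate 2. In all, 3 of the 544 members met more than 1 region of a replicate, the others being 4143968 to 4145821 (1854 bp) on the left arm and 11791313 to 11792188 (876 bp) in the centre, against 1 of 447 on the right arm, 66 of 5008 on the autosomes and 70 of 5999 in the whole list. The second widest, 3114787 to 3116759 on the left arm, spanned 1973 bp with a −log10 q of 8.16 and met 1 region in each replicate. These wide members were named after their values were seen. Spearman's rho of width and −log10 q was 0.632 over the 544 members, against 0.582 on the right arm and 0.703 on the autosomes, a description across regions that share their libraries.

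**Figure D5:**
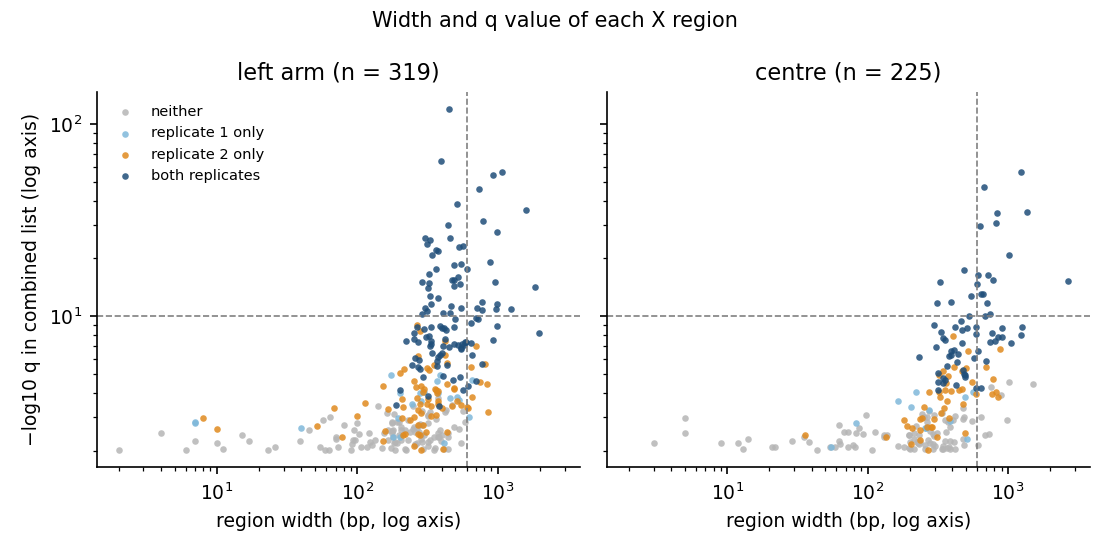
Width (horizontal, bp, log axis) and −log10 q in the combined list (vertical, log axis) of each left arm (319) and centre (225) region, coloured by the replicate lists that hold it; dashed lines mark 600 bp and a −log10 q of 10. Points past both lines number 16 on the left arm and 17 in the centre, and the 9 grey points beyond 600 bp are all in the centre.

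The right border, at 11.8 Mb, fell in a gap between a member ending at 11798429 and a right arm region starting at 11881500. The 3 members just inside it were 11692962 to 11693321 (−log10 q 4.53), 11791313 to 11792188 (6.74) and 11797945 to 11798429 (5.02, with 2.31 in replicate 1 and 2.10 in replicate 2). The 3 regions just outside were weaker: 11881500 to 11881695 (2.82), 11907982 to 11908030 (2.72) and 11924118 to 11924451 (3.21).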

How the data were processed

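The authors deposited 3 lists of PeakSeq regions, 1 per ChIP replicate and 1 named as combined, with 1 q value per region as a p-value type of measure, per the file headers. Positions are in WormBase WS220, carried over from an earlier build, per the file headers. The sources used here do not state the aligner, versions, filters, use of inputs and the way replicates were combined. No list carries read counts, so depth is unknown.

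Members and lists were chosen with earlier results of these data known. Region centres, widths (end minus start plus 1) and −log10 q were computed from the files, and ranks were taken within each whole list. Regions matched when they shared at least 1 bp, and the match with the smallest q gave a member's replicate value. Named regions followed a rule of rank by q value, presence in both replicate lists or in neither, fullness of 100 kb windows, gap length and distance to the border. Intervals of shares are 95% exact Clopper-Pearson ones and cover only counting error. Left arm and centre counts were compared by exact binomial tests (threshold 0.05). The code was tested on simulated data. Python 3.11.15, scipy 1.17.1, pandas 2.3.3 and matplotlib 3.10.9 were used. Alternatives changed the overlap, the regions kept, the list and the borders.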

Additional observations from a re-analysis of the deposited data

How the results depend on the processing

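Of 31 alternatives, 19 left the value within its interval, within 1.5 times its count or on its side of the threshold. The higher density of the left arm kept its direction in every alternative run and lost its call in 1, the omission of the first 3 Mb (37.7% of regions on 33.0% of the length, exact binomial adjusted p = 0.0967, chosen after seeing the data). With 1 replicate list alone its share ran from 60.1% to 61.2%. The stronger 50% of each list gave 39.9% of members in both replicates and 27.1% in neither, shares not computed for the whole list. Against 1 replicate only, 39.2% to 55.3% of members were found and 44.7% to 60.9% were not, which follows from asking for 1 list in place of both. The lower share found was against replicate 1 and the higher against replicate 2. Over all combined regions these shares were 46.9% and 58.6%. A single replicate list held 227 to 316 regions of the stretch, and 7.49% to 11.7% of them had a q of 1e-10 or less. Among the members, 33.3% had a q of 1e-5 or less and 4.78% of 1e-20 or less. Most regions of the whole combined list also had a q above 1e-5, since its median −log10 q was 4.20, against 3.42 for the members. Yet a q above 1e-5 was more frequent among members of 600 bp or more than among such regions of the whole list (29.3% against 13.3%). The same held for regions from 50 bp to under 600 bp (71.5% against 59.2%). Under 50 bp nearly all regions had such a q in both sets (100% and 99.3%). The share with a q of 1e-20 or less was not computed for the whole list. No paired analysis was possible because a region list was at hand for the ChIP samples alone, and the lists give no depth with which to judge weak regions.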
